A study of Mus musculus with 6 samples.

Results

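Amino acid transporters move amino acids across the plasma membrane, and the genes described here are 9 names chosen as transporters of cystine, of large neutral, cationic and small neutral amino acids, and of glycine: Slc7a11, Slc7a5, Slc3a2, Slc7a1, Slc7a3, Slc1a4, Slc1a5, Slc38a2 and Slc6a9. Members were taken by gene symbol in the FPKM tables of all libraries, and 8 of the 9 were found, each at 1 locus, among 22601 loci with a symbol and 25001 loci in all. Slc7a5 was not analysed here. FPKM is the number of fragments divided by transcript length and by library size, so that levels of different genes are per length.

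The data were RNA sequencing of 427 cells, a mouse thymoma cell line that makes the membrane serine protease epithin/PRSS14 (gene St14), in 6 libraries with 1 library per condition. The question of the study was which genes respond to EICD, the intracellular domain that is set free when epithin/PRSS14 is shed and then cut inside the membrane by SPPL2b. The 427 DMSO and 427 PMA libraries came from 427 cells with the empty pSUPER vector, and the SP2bKD DMSO and SP2bKD PMA libraries from cells labelled as an SPPL2b knockdown. These 4 cultures spent 2 h without serum and were then given DMSO or 1 µM PMA for 2 h. PMA is a phorbol ester and sets off the shedding. The SP2bKD GFP and SP2bKD GFP+EICD libraries came from cells with the same label transfected with a GFP vector alone or together with FLAG-tagged EICD, and GFP-positive cells were sorted a day later. By the study's methods the transfected cells were 1 single-cell clone with a stable shRNA, while the sample labels give an siRNA for all 4 libraries with this label. Which clone gave the SP2bKD DMSO and SP2bKD PMA libraries is not given in the sources used here. In comparisons with 427 cells, and between transfected and untransfected cells, a difference between clones cannot be told apart from the condition.

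As background, Slc3a2 encodes the heavy chain 4F2hc (CD98), which brings light chains to the cell surface. Its light chains include xCT, encoded by Slc7a11, which takes up cystine in exchange for glutamate and so feeds glutathione synthesis. Many amino acid transporter genes are known targets of ATF4, the transcription factor made when the integrated stress response slows general translation, and ATF4 with a C/EBP partner binds the C/EBP-ATF response element. Slc7a11 is also a known target of NRF2, the regulator of antioxidant genes that binds the antioxidant response element.

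The library checks were as follows. Sppl2b, the knockdown target, stood at an FPKM of 9.90 in 427 DMSO and 6.86 in 427 PMA, and at 13.4, 9.37, 11.4 and 13.2 in the libraries labelled SP2bKD DMSO, SP2bKD PMA, SP2bKD GFP and SP2bKD GFP+EICD. It was thus not lower in the libraries labelled SP2bKD, which are named by their labels throughout. The study itself checked SPPL2b mRNA of its knockdown clones by real-time PCR and reported less PMA-induced EICD in them. St14, whose sequence the EICD construct shares, was at an FPKM of 69.6 in SP2bKD GFP and 614.5 in SP2bKD GFP+EICD. Fosl1, an AP-1 gene induced by phorbol ester, was higher with PMA by 3.97 on the log2 scale in 427 cells and by 4.68 in cells labelled SP2bKD. Of 7 epithelial markers 6 were found and 5 reached an FPKM of 1, with a summed level between 2470 and 4313, led by Krt14. Of 8 leukocyte markers none reached 1, their sum lay between 0.0598 and 0.394, and the T lymphocyte genes Cd3e and Cd4 were listed at 0 in every library. The fibroblast markers (5) and endothelial markers (3) did not reach 1 either. The depth was estimated at 25300000 to 29000000 fragments per library, and 10555 to 10873 loci reached an FPKM of 1.

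**Figure D1:**
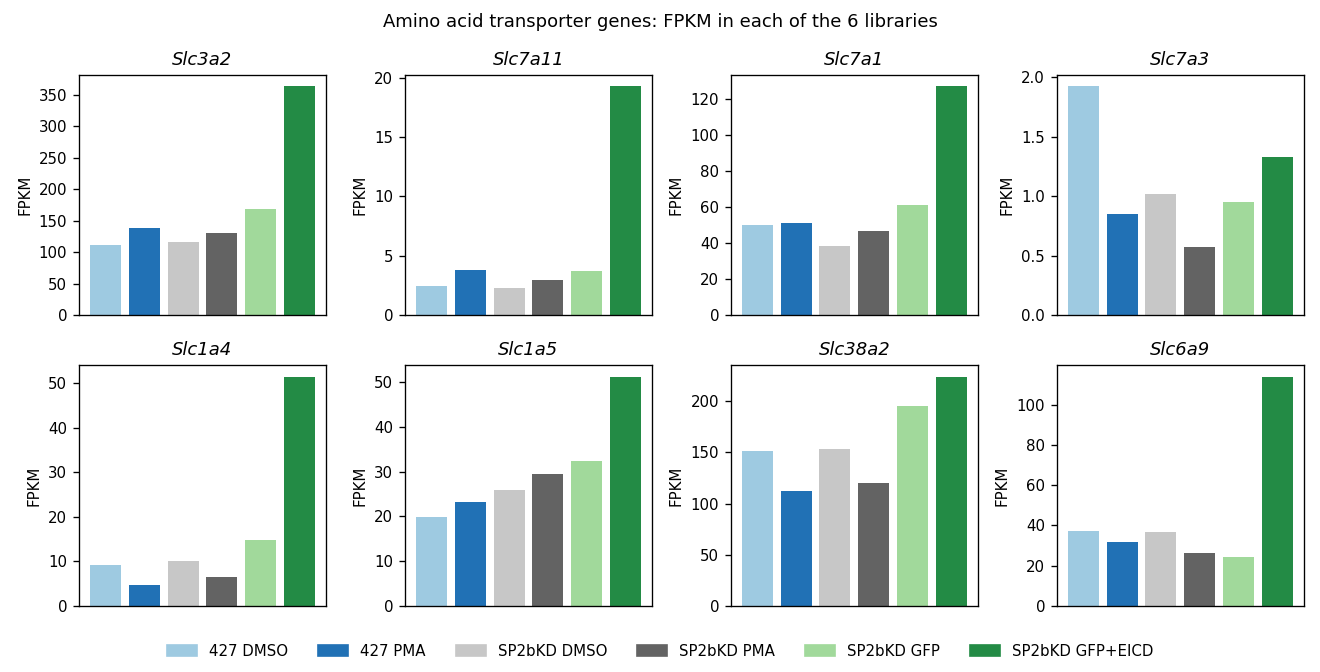
FPKM of the 8 amino acid transporter genes in each of the 6 libraries, 1 bar per library and 1 panel per gene, with the vertical axis of each panel starting at 0 on its own scale. There are no error bars because each condition has 1 library. The SP2bKD GFP+EICD bar is the tallest for 7 of the 8 genes, and for Slc7a3 the 427 DMSO bar is.

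The transporter genes covered a wide range of levels. In SP2bKD GFP cells Slc38a2 was the highest with an FPKM of 195, followed by Slc3a2 at 168, Slc7a1 at 61.2, Slc1a5 at 32.5, Slc6a9 at 24.2, Slc1a4 at 14.8, Slc7a11 at 3.69 and Slc7a3 at 0.954. With EICD the order began with Slc3a2 at 363, and Slc38a2 was second at 224. There Slc1a4 at 51.4 and Slc1a5 at 51.2 were nearly equal, with a ratio of 1.00. With 1 library per condition no spread between replicates was available to say which other neighbours in the order differ.

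The comparison that asks for the response to EICD is SP2bKD GFP+EICD against SP2bKD GFP. All 8 transporter genes had a positive log2 fold change, and 5 of them were more than 2-fold higher: Slc7a11, Slc6a9, Slc1a4, Slc3a2 and Slc7a1. Among all 10682 loci tested, 58.3% were positive, 3.58% lay above 2-fold up and 0.506% beyond 2-fold down. None of the 8 genes was more than 2-fold lower. Their median log2 fold change was 1.08, beside 0.07 for all loci tested. The 8 genes were chosen with earlier results of these data known, so these values are not independent of those results. Loci were tested if they carried a symbol and reached an FPKM of 1 in either library, and were counted as higher or lower once their ratio passed 2-fold. No p-value was computed for single comparisons, since each condition has 1 library, and the intervals given below cover counting error only, as exact 95% binomial intervals from estimated fragments. These are bulk libraries, so a change in the make-up of the cells and a change in RNA per cell cannot be told apart. The summed epithelial markers were at 4313 with GFP and 2864 with EICD, and the leukocyte sum at 0.142 and 0.394. Most of the epithelial sum was Krt14, at 3820 with GFP and 2456 with EICD. Of 5 epithelial markers tested, 1, Krt8, was more than 2-fold lower. Epcam was at 153 and 140, Krt18 at 49.5 and 41.2, and Cdh1, the 1 positive, at 147 and 156. The part of these markers in the values below was not tested.

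Slc3a2 (chromosome 19, 8706882 to 8723369 on GRCm38, minus strand), the heavy chain gene, was at an FPKM of 112 in 427 DMSO, 139 in 427 PMA, 117 in SP2bKD DMSO, 130.0 in SP2bKD PMA, 168 in SP2bKD GFP and 363 in SP2bKD GFP+EICD. The EICD library was 2.16-fold above the GFP library, which is also the highest of the other 5, with a log2 fold change of 1.11 (interval 1.08 to 1.15). Of all loci tested it ranked 296 from the highest.

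Slc7a11 (chromosome 3, 49892526 to 50443616, minus strand), the cystine light chain gene, has 12 exons in its coding transcript and 1506 coding bases of 9223. Its FPKM was 2.45 in 427 DMSO, 3.80 in 427 PMA, 2.28 in SP2bKD DMSO, 2.95 in SP2bKD PMA, 3.69 in SP2bKD GFP and 19.3 in SP2bKD GFP+EICD. The first 5 libraries lay close together at a low level and the EICD library stood apart. The difference from GFP was 5.22-fold, or 2.38 on the log2 scale (2.28 to 2.49), rank 28 of the loci tested and the largest of the transporter genes. The level of Slc3a2 was between 36.6 and 51.3 times that of Slc7a11 in the other 5 libraries and 18.8 times in the EICD library. Slc7a6, which encodes another light chain of the same heavy chain, did not show this: its FPKM was 43.2 with GFP and 39.1 with EICD. Slc7a11 was thereby at 8.56% of the level of Slc7a6 with GFP and at 49.3% with EICD.

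The cationic transporter genes differed in level. Slc7a1 (chromosome 5, 148327410 to 148399904, minus strand) encodes CAT1, a carrier of arginine and lysine, and was at an FPKM of 49.9 in 427 DMSO, 51.1 in 427 PMA, 38.6 in SP2bKD DMSO, 46.9 in SP2bKD PMA, 61.2 in SP2bKD GFP and 127 in SP2bKD GFP+EICD. It was 2.08-fold higher with EICD than with GFP, a log2 fold change of 1.06 (1.02 to 1.09) and rank 340. Slc7a3 (chromosome X, 101079210 to 101090212, minus strand), which encodes the related carrier CAT3, was at 1.92, 0.848, 1.02, 0.570, 0.954 and 1.33 in the same order of libraries. About 66 fragments stood behind its GFP value and about 97 behind its EICD value, and the log2 fold change of 0.49 had an interval of 0.02 to 0.96. The deposited Slc7a3 locus also holds an unnamed newly assembled locus on the opposite strand.

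Both ASC-type carriers of small neutral amino acids were higher with EICD, 1 of them past 2-fold. Slc1a4 (chromosome 11, 20302180 to 20332756, minus strand) encodes ASCT1, a carrier of alanine, serine and cysteine. Its FPKM was 9.25 in 427 DMSO, 4.72 in 427 PMA, 10.04 in SP2bKD DMSO, 6.52 in SP2bKD PMA, 14.8 in SP2bKD GFP and 51.4 in SP2bKD GFP+EICD, the widest range of the 8 genes at 10.9-fold. With EICD it was 3.48-fold higher than with GFP (log2 1.80, 1.72 to 1.88), rank 73. Slc1a5 (chromosome 7, 16781336 to 16798274, plus strand) encodes ASCT2, which also carries glutamine, and was at 19.9, 23.3, 25.9, 29.5, 32.5 and 51.2 in the same order. Its difference with EICD was 1.58-fold (log2 0.66, 0.58 to 0.73), rank 905, so that it did not pass 2-fold.

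Slc38a2 (chromosome 15, 96687394 to 96699698, minus strand) encodes SNAT2, a sodium-coupled carrier of small neutral amino acids that adapts to amino acid supply. Its FPKM was 151 in 427 DMSO, 112 in 427 PMA, 154 in SP2bKD DMSO, 120.5 in SP2bKD PMA, 195 in SP2bKD GFP and 224 in SP2bKD GFP+EICD. The EICD and GFP libraries differed by 1.15-fold, a log2 fold change of 0.20 (0.17 to 0.22), rank 3702.

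Slc6a9 (chromosome 4, 117834506 to 117875198, plus strand) encodes the glycine transporter GLYT1. It was at an FPKM of 37.1 in 427 DMSO, 31.8 in 427 PMA, 36.9 in SP2bKD DMSO, 26.3 in SP2bKD PMA, 24.2 in SP2bKD GFP and 114 in SP2bKD GFP+EICD. The GFP library held the lowest value of the 6, and the EICD library was 4.71-fold above it (log2 2.24, 2.17 to 2.30), rank 32. It was 3.06-fold above 427 DMSO, the highest of the other libraries. Slc6a9 overlaps Ccdc24, B4galt2 and Gm17114 on the opposite strand, with 1429, 46 and 511 exon bases in common, and the library kit does not mark the strand. The deposited locus named B4galt2 extends from the start of Ccdc24 at 117866524 to 117883487 and so spans both genes. This locus was at 3.29, 2.91, 3.72, 2.84, 2.39 and 10.3 in the same order and its log2 fold change with EICD was 2.11. Fragments of the overlapping genes cannot be told apart.

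**Figure D2:**
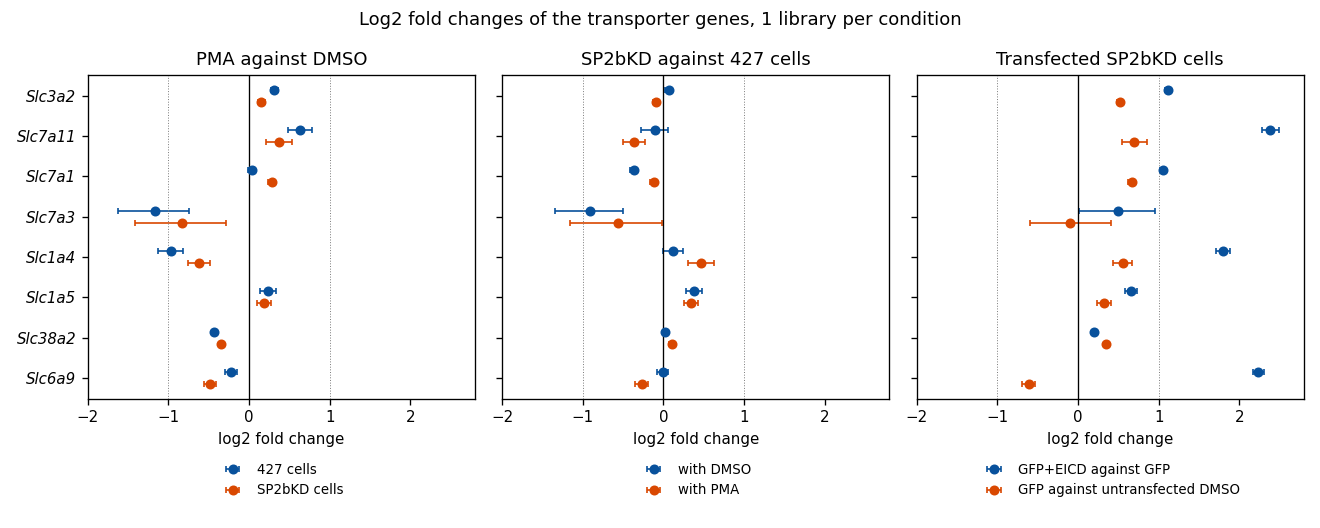
Log2 fold changes of the 8 transporter genes (horizontal axis) in 6 comparisons, with PMA against DMSO on the left, cells labelled SP2bKD against 427 cells in the middle and the transfected cells on the right. Points are ratios of 1 library to another, bars are 95% binomial intervals for counting error only, and dotted lines mark 2-fold. With EICD all 8 points lie above 0 and 5 lie past 2-fold, up to 2.38 for Slc7a11.

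**Figure D3:**
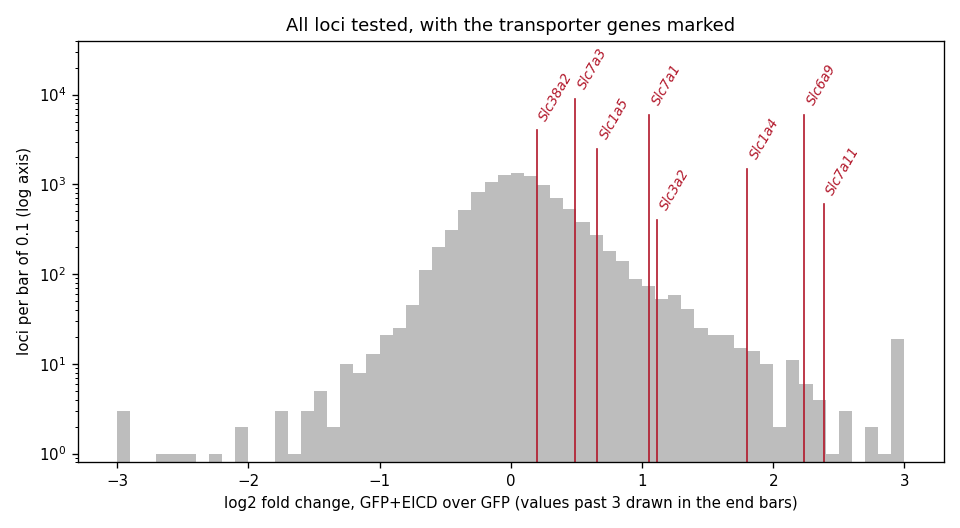
Number of loci (vertical log axis) by log2 fold change of SP2bKD GFP+EICD over SP2bKD GFP (horizontal axis) for the 10682 loci tested, with lines at the values of the 8 transporter genes. The heights of the lines carry no meaning. The loci centre near 0, and Slc6a9 and Slc7a11 lie in the upper tail at 2.24 and 2.38.

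The promoters of the transporter genes were read for short motifs, because several of these genes have a known response element there. RefSeq promoter windows (GRCm38.p6, from 250 bases before to 50 bases after the transcription start) matched 6 of the 9 genes in 9 windows, with 3 for Slc6a9 and 2 for Slc7a1. Slc7a5, Slc7a3 and Slc1a5 were not matched. The core of the C/EBP-ATF response element was searched as TGATGNAA on both strands. It was present in 3.97% of all 32851 windows and, among the 6 genes, in those of Slc7a11 and Slc1a4. The 250 bases before the start of Slc7a11 (chr3:50443614-50443863, minus strand) are shown first because they hold this core at 2 places, in capitals, in opposite orientations and 11 bases apart, and only 23 of all windows (0.0700%) hold it at 2 or more. The first lies 66 to 59 bases before the start and the second 47 to 40 bases before it. The Slc1a4 sequence (chr11:20332704-20332963, minus strand, from 250 bases before to 10 bases after the start) is shown because its 1 match, in capitals, spans the start itself.
Slc7a11: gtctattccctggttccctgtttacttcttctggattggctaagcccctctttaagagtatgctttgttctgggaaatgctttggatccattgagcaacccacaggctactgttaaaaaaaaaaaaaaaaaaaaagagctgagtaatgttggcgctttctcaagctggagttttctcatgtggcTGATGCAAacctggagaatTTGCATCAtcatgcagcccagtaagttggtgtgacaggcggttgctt
Slc1a4: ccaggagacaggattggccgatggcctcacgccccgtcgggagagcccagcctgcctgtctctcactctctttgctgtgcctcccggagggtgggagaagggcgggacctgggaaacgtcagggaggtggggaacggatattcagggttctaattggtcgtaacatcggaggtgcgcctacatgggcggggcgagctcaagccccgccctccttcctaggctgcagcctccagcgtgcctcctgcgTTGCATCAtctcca
The AP-1 site, TGANTCA, was in 7.81% of all windows and, among the 6 genes, in 1 window of Slc7a1. A stretch around it (chr5:148400009-148400037, minus strand) is shown since AP-1 genes respond to PMA. The site, in capitals, begins 123 bases before the start. Slc7a1 itself had log2 fold changes with PMA of 0.03 in 427 cells and 0.28 in cells labelled SP2bKD.
Slc7a1: ccatcagctcTGACTCAagctcagttgcg
The core of the antioxidant response element, TGACNNNGC, was in 12.4% of all windows and in those of Slc6a9, Slc7a1 and Slc38a2. The E-box CACGTG, in 7.15% of all windows, was in none of the 9. A match says that these letters are in the window, not that a factor is bound there. Slc6a9 and Slc7a1, which were more than 2-fold higher with EICD, had no TGATGNAA in these windows. The 1 window of Slc3a2 begins at a RefSeq start 9472 bases inside the deposited locus, so that the start at the locus end was not searched. For Slc6a9 the 3 RefSeq starts lie 752, 14844 and 21041 bases inside the deposited locus, and its locus end was not searched either.

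The other amino acid transporter genes gave a comparison within the same function. Of 42 further transporter genes, all found, 10 were tested with EICD. Of these 5 were positive, 1 was more than 2-fold higher and none was more than 2-fold lower, with a median log2 fold change of 0.14. The gene past 2-fold was Slc38a7, which encodes a glutamine carrier of the lysosome, with an FPKM of 11.3 with GFP and 26.3 with EICD. Close relatives of the transporter genes above included the taurine carrier gene Slc6a6, at 92.8 with GFP and 90.0 with EICD, and the glutamate carrier gene Slc1a2, at 11.9 and 9.42. Slc38a6, of the same family as Slc38a2, was at 71.5 with GFP and 52.8 with EICD, a log2 fold change of -0.44. Other genes of the list lay on the higher side without passing 2-fold: Slc43a2 at 0.75, Slc38a9 at 0.67 and Slc36a1 at 0.56.

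ATF4 and genes known as its targets, a list of 20 that holds none of the transporter genes, had 19 tested with EICD. Of these 18 were positive, 14 were more than 2-fold higher and none was more than 2-fold lower, with a median of 1.35. Among all loci tested 3.58% were higher and 0.506% lower. This list, like the transporter genes, was chosen with earlier results of these data known, so its count is not independent of them. The largest values belonged to Trib3, a pseudokinase that dampens the response, with an FPKM of 6.57 with GFP and 60.9 with EICD, and to Chac1, which degrades glutathione, with 15.2 and 113. Ddit3, the stress transcription factor CHOP, was at 12.5 and 43.1, and Asns, asparagine synthetase, at 85.8 and 189. Sesn2, an inhibitor of mTORC1, was at 7.32 and 18.7. Atf4 itself was at 139.6 with GFP and 187 with EICD, a log2 fold change of 0.42. The 1 negative value was that of Phgdh, an enzyme of serine synthesis, at -0.07.

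NRF2 and genes known as its targets, 11 genes with 10 tested, had 3 positive values and none past 2-fold in either direction. Their median log2 fold change was -0.18. Hmox1, heme oxygenase, had the largest value at 0.49, from an FPKM of 24.6 to 34.6. Gclm, of glutathione synthesis, was at 31.5 with GFP and 21.4 with EICD, and Txnrd1, thioredoxin reductase, was at 83.8 and 67.6. Nqo1, a quinone reductase, stayed below an FPKM of 1 in both and was not tested. Of the genes with windows, TGATGNAA was in 7 of 19 on the ATF4 list and in 0 of 8 on the NRF2 list. It was in 2.69% of the 8022 genes with windows tested with EICD. Of the 262 that were more than 2-fold higher, 10.7% held it. The AP-1 site was in 6.16% of the tested genes and 13.0% of the higher ones. The antioxidant core was in 17.1% and 16.8%, and the E-box in 12.2% and 10.3%. The 262 genes include members of the ATF4 list and transporter genes, both chosen with earlier results of these data known. ATF4 binds the C/EBP-ATF response element, so genes may be known as its targets because they hold TGATGNAA. These shares are given as a description and are no test of a factor.

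**Figure D4:**
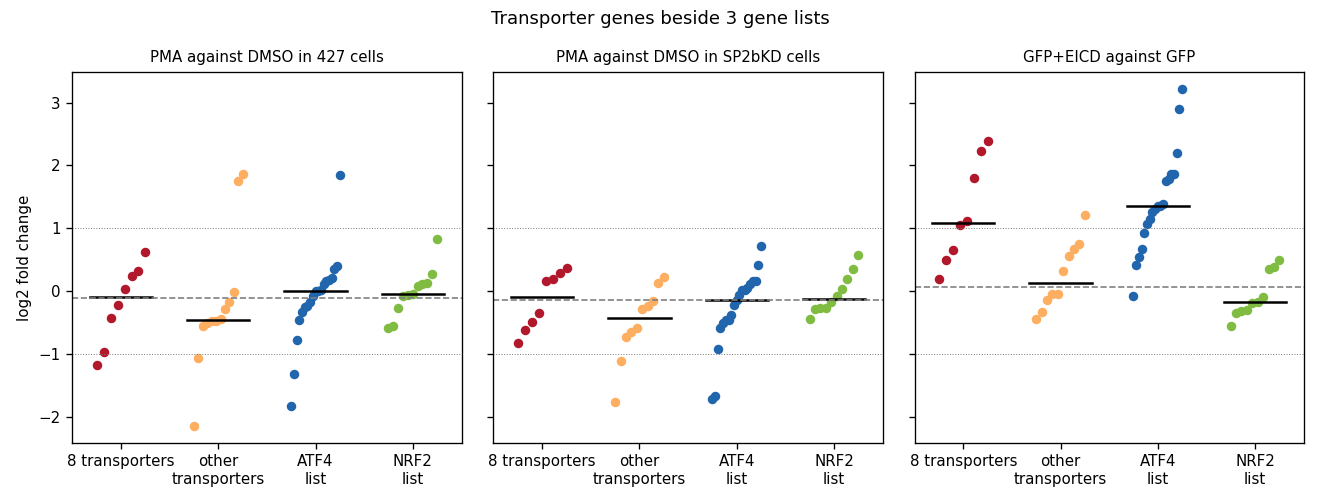
Log2 fold changes (vertical axis) of the tested genes of the 8 transporters, the other amino acid transporters, the ATF4 list and the NRF2 list with PMA in 427 cells, with PMA in cells labelled SP2bKD and with EICD. Points are genes, thick lines are medians, the dashed line is the median of all loci tested and dotted lines mark 2-fold. With EICD the medians are 1.08, 0.14, 1.35 and -0.18 in that order, and with PMA all lie between -0.46 and -0.0049.

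PMA against DMSO in 427 cells and in cells labelled SP2bKD asks for the response when shedding is induced. In 427 cells 4 of the 8 transporter genes were higher and 4 lower, and 1 passed 2-fold: Slc7a3 was 2.25-fold lower, a call that ended when 1 was added to both libraries, at -0.66. Among all 10643 loci tested 37.2% were positive, 3.91% passed 2-fold upward and 4.67% downward. In cells labelled SP2bKD none of the 8 passed 2-fold, with 35.6% of all loci positive, 3.51% past 2-fold upward and 5.69% downward. The median of the 8 genes was -0.10 in both, beside -0.12 and -0.15 for all loci. Under median-ratio scaling this median was 0.00017 in 427 cells and 0.27 in cells labelled SP2bKD, beside -0.02 and -0.03 for all loci. The value of 0.27 is over 7 genes, because Slc7a3, a lower gene, then fell below an FPKM of 1 and was not tested. The scaling itself shifts each ratio there by 0.12, so most of that move comes from the loss of Slc7a3. Each of the 8 genes had the same sign in both lines, and the log2 fold changes differed between the lines by -0.26 to 0.35, differences that were not tested.

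Both lines were also fitted together with limma, with the line as a block, so that the lines stand as the replicates of PMA. This fit was added after seeing the data, has 4 libraries and 1 residual degree of freedom, and its spread rests mostly on the other loci. It used FPKM without further scaling. Median-ratio scaling shifts the PMA log2 ratios by 0.096 in 427 cells and 0.12 in cells labelled SP2bKD, and sum scaling by -0.25 and 0.03. The fit was not repeated with scaling, so the split into lower and higher genes may depend on it. Of the 8 genes 4 were lower at an adjusted p under 0.05 and 0 were higher, beside 24.3% and 11.6% of 10845 loci, and at an unadjusted p under 0.05 there were 4 lower and 3 higher. The 4 lower genes were Slc1a4 (mean log2 fold change -0.80, limma adjusted p = 0.0126), Slc38a2 (-0.39, adjusted p = 0.0193), Slc6a9 (-0.36, adjusted p = 0.0421) and Slc7a3 (-0.999, adjusted p = 0.0459). Without a trend of the spread with the level only Slc7a3 and Slc1a4 of the 8 passed, at limma adjusted p of 0.0293 and 0.0374. The share of all loci that passed without the trend is not given here, so this count cannot be read against it.

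Of the genes that were lower with PMA, Slc7a3 and Slc1a4 had the largest decreases. For Slc7a3 the log2 fold change was -1.17 (interval -1.62 to -0.75) in 427 cells, from about 142 to about 66 fragments, and -0.83 (-1.42 to -0.29) in cells labelled SP2bKD. For Slc1a4 it was -0.97 (-1.12 to -0.81) and -0.62 (-0.76 to -0.49). Slc38a2 was lower by 1.35-fold in 427 cells and by 1.27-fold in cells labelled SP2bKD, and Slc6a9 by 1.17-fold and 1.40-fold. Slc7a3, Slc1a4, Slc38a2 and Slc6a9 were thus below DMSO in both lines, and all 4 were above the GFP library with EICD. Of all loci tested, 37.2% and 35.6% were positive with PMA in the 2 lines, and 58.3% with EICD. Lower with PMA and higher with EICD were thus the more common directions among all loci. Those that were higher were led by Slc7a11, at 0.63 (0.48 to 0.78) in 427 cells and 0.37 (0.21 to 0.53) in cells labelled SP2bKD. Slc3a2 was at 0.32 and 0.15. Slc1a5 was at 0.23 and 0.19 and Slc7a1 at 0.03 and 0.28, and in 427 cells both turned negative, to -0.02 and -0.22, when each library was scaled to the same FPKM sum.

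Among the other amino acid transporter genes, 12 were tested with PMA in 427 cells and 10 in cells labelled SP2bKD. In 427 cells 2 were more than 2-fold higher and 2 lower, with a median of -0.46, and in cells labelled SP2bKD none was higher and 2 were lower, with a median of -0.43. Slc43a2, which encodes the large neutral amino acid carrier LAT4, went from an FPKM of 24.7 to 5.59 with PMA in 427 cells and from 35.9 to 10.5 in cells labelled SP2bKD. Slc38a9, the lysosomal arginine sensor, was the other lower gene in both, at -1.07 and -1.11 on the log2 scale. The higher genes in 427 cells were low in level: Slc1a1, a glutamate carrier gene, went from 0.379 to 1.41, and Slc6a14, which encodes a broad carrier of neutral and cationic amino acids, from 0.690 to 2.35. On the ATF4 list 19 genes were tested in each line, with 1 higher (Atf3) and 2 lower (Vldlr and Ddit4) in 427 cells and none higher and 2 lower (Nupr1 and Vldlr) in cells labelled SP2bKD. No gene of the NRF2 list passed 2-fold with PMA in either line, with 11 and 10 tested.

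Cells labelled SP2bKD against 427 cells ask for the effect of less SPPL2b, although the FPKM of Sppl2b was not lower in these libraries. With DMSO none of the 8 transporter genes passed 2-fold, and among 10706 loci 3.11% were higher and 2.76% lower. With PMA 7 were tested and none passed 2-fold, with 2.19% of 10518 loci higher and 2.75% lower. Slc7a3 was the most different with DMSO, with a log2 fold change of -0.91 (-1.35 to -0.50), and was below an FPKM of 1 in both PMA libraries. Slc7a1 was at -0.37 with DMSO and -0.12 with PMA. Slc1a5 was at 0.38 and 0.34, and Slc1a4 at 0.12 and 0.46. Slc3a2 was at 0.07 and -0.10, Slc38a2 at 0.02 and 0.10, and Slc6a9 at -0.01 and -0.27 (-0.35 to -0.20). Slc7a11 was at -0.11 and -0.36. Scaling each library to the same FPKM sum shifts these comparisons by 0.97 and 1.25 and turns the lower values of Slc7a11, Slc7a1, Slc7a3 and Slc6a9 to positive ones, as well as that of Slc3a2 with PMA. The top 10 loci held 85.6% to 94.2% of the FPKM sum of a library. Of the other transporter genes Slc6a14 and Slc1a1 were more than 2-fold lower with PMA, at -2.92 and -2.15, and none with DMSO.

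SP2bKD GFP against SP2bKD DMSO shows how the control of the EICD comparison stood beside the untransfected cells. The libraries differ in transfection, sorting, DMSO and serum, which cannot be told apart. None of the 8 transporter genes passed 2-fold, and among 10687 loci 40.9% were positive, 3.56% past 2-fold higher and 4.14% lower. The median of the 8 genes was 0.43, beside -0.08 for all loci. Of the 8, 6 were higher in the GFP library, led by Slc7a11 at 0.69 and Slc7a1 at 0.67, with Slc1a4 at 0.55, Slc3a2 at 0.52, Slc38a2 at 0.35 and Slc1a5 at 0.33. Slc6a9 was lower, at -0.61 (-0.69 to -0.53), and Slc7a3 was at -0.10. The same GFP library is the denominator of the EICD values, so that a high or low value there lowers or raises the EICD ratio. Slc6a9 with EICD against the untransfected library was 114 beside 36.9. On the ATF4 list 1 of 19 tested genes was more than 2-fold higher (Atf3, 4.63 to 33.0), and no gene of the NRF2 list or of the other transporters passed 2-fold.

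Scaling limits the count of genes past 2-fold with EICD. When each library was scaled to the same FPKM sum, which lowers every EICD log2 fold change by 0.18, Slc3a2 was at 0.93 and Slc7a1 at 0.87, and 3 of 7 tested genes stayed past 2-fold. All 8 kept a positive sign under every alternative, down to 0.02 for Slc38a2.

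The pattern of Slc1a4, the gene with the widest range, was compared with every other locus by the root mean square difference of centred log2 levels over the 6 libraries. Of 11061 loci the closest were Cdnf at 0.19, Otub2 at 0.19, a newly assembled locus named gag at 0.22, Mmp28 at 0.26 and Card14 at 0.30, beside a median of 1.10. Loci needed an FPKM of 1 in at least 1 library. Cdnf and Card14 reached it only in SP2bKD GFP+EICD, at 1.40 and 2.21, and were included through that library alone. Otub2, for one, was at an FPKM of 3.08 in 427 DMSO, 1.48 in 427 PMA, 3.47 in SP2bKD DMSO, 2.15 in SP2bKD PMA, 3.64 in SP2bKD GFP and 13.0 in SP2bKD GFP+EICD. The other transporter genes ranked from 228 (Slc7a11) to 3276 (Slc7a3), and the likeness rests on 6 points that share the GFP+EICD library.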

How the data were processed

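RNA of 6 libraries was sequenced as poly-A RNA with an unstranded kit in paired ends. The authors aligned the reads with TopHat2 2.1.1 and computed FPKM with Cufflinks and Cuffdiff 2.1.1 on GRCm38, and deposited the FPKM of every locus in each library. The submitters' processing notes also name STAR 2.4.0b, with no role. FPKM depends on the assembled gene models and on overlapping genes, and is not a count.

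Groups were taken from the sample labels. From the deposited FPKM, log2 ratios were computed after adding 0.01 to both libraries, or, for EICD, to GFP+EICD alone and over loci whose GFP value was 0.01 or more. Adding it to both understates the change of low genes, and adding it to GFP+EICD alone raises their EICD ratio. Loci with a symbol and at least 1 FPKM in 1 of the libraries compared were tested, and called past 2-fold. Single comparisons have no p-value, because each condition has 1 library. PMA over both lines was also fitted with limma 3.58.1 in R 4.3.3 on log2(FPKM + 0.01), with the line as a block and Benjamini-Hochberg adjustment.

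Depth was estimated from the smallest step of FPKM times length among single-transcript genes over 2500 bases. Fragments per gene used the longest GENCODE M21 transcript and are upper estimates, and 95% intervals (Clopper-Pearson) cover counting error only. Python 3.11.15, NumPy 2.4.6, pandas 2.3.3, SciPy 1.17.1 and matplotlib 3.10.9 were used, and the scripts were tested on simulated data. The members and gene lists were chosen with earlier results of these data known. Named genes were the members, other transporters past 2-fold, Atf4, Ddit3, Trib3, Asns, Chac1, Sesn2, Hmox1, Nqo1, Gclm and Txnrd1, the checks, and the 5 loci most like the member of widest range. Slc6a6, Slc7a6, Slc1a2, Slc38a6, B4galt2, Phgdh, Atf3, Atf5, Vldlr, Ddit4 and Nupr1 were named after their values were seen. The alternatives were another amount added (0.001, 0.1, 1), another minimum FPKM (none or 10), upper-quartile, median-ratio and sum scaling, all rows of a symbol summed, and a 1.5-fold call.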

Additional observations from a re-analysis of the deposited data

Results flagged for a closer look

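Atf5, a stress transcription factor of the ATF4 list, moved in opposite directions with PMA in the 2 lines: the log2 fold change was 0.21 in 427 cells (an FPKM of 17.4 with DMSO and 20.2 with PMA) and -0.59 in cells labelled SP2bKD (10.6 and 7.001). The difference was not tested, because each condition has 1 library. Atf5 was not alone in this: Slc1a2 was at -0.56 in 427 cells and 0.22 in cells labelled SP2bKD, and Hmox1 at 0.13 and -0.26. Scaling each library to the same FPKM sum shifts PMA log2 ratios by -0.25 in 427 cells and 0.03 in cells labelled SP2bKD. The shift in 427 cells is larger than the values of Atf5 and Hmox1 there, so their opposite signs depend on the scaling. Not every gene of the lists was searched for opposite signs.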

How the results depend on the processing

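With EICD, 5 transporter genes past 2-fold became 3 of 7 tested when each library was scaled to a sum of 1000000 (1.22% of all loci), and stayed 5 when the amount added or the minimum FPKM was changed or upper-quartile or median-ratio scaling was used. The 80 alternative values of single genes all kept their sign. With PMA in 427 cells the 1 lower gene, Slc7a3, became 0 with 1 added to both libraries. It became 0 with a minimum FPKM of 10 and with sum scaling (5 tested each) because Slc7a3 was then no longer tested, while its log2 fold change was -1.17 and -1.29. Under sum scaling Slc1a4 was at -1.19 and was not tested either. Calling at 1.5-fold gave 1 higher and 2 lower there, beside 8.10% and 14.4% of all loci. It gave 2 lower with PMA in cells labelled SP2bKD (16.5% of loci), 1 lower for SP2bKD against 427 cells with DMSO (6.30%), and 2 higher and 1 lower for GFP against untransfected cells (8.01% and 12.0%). Sum scaling gave 3 higher of 6 tested for SP2bKD against 427 cells with DMSO and 5 of 6 with PMA, where 51.8% and 83.6% of all loci were called higher. Median-ratio scaling shifted all log2 ratios by 0.12 with PMA in cells labelled SP2bKD.

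Pairing was run for PMA, with the line as the replicate block over both lines. There limma called 4 lower and 0 higher, beside 24.3% and 11.6% of all loci. Without a trend of the spread it called 2 lower, with no share of all loci to set beside them. The limma fit was chosen after seeing the data, and its threshold is an adjusted p and not a fold. It was not repeated with scaling. EICD has 1 library in each condition and no pairs. Leaving out a replicate was not possible, and the depth limits Slc7a3 most, with 45 to 142 fragments.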
